A study of Mus musculus with 75 samples.

Results

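The oxidative phosphorylation genes examined here are the protein-coding genes, present in both deposited count tables, whose symbols begin with Nduf, Uqcr, Atp5 or mt- or that match Sdha to Sdhd or Cox4 to Cox8. The rule gave 106 of 21474 protein-coding genes, of which 13 are encoded in mitochondrial DNA and 93 in nuclear DNA. The mitochondrial genes comprise 7 subunits of complex I, 1 of complex III, 3 of complex IV and 2 of complex V. The nuclear genes comprise 36 of complex I, 4 of complex II, 8 of complex III, 20 of complex IV, 16 of complex V and 9 that the prefixes bring in without being subunits, namely the complex I assembly factors Ndufaf1 to Ndufaf8 and Atp5s, a factor of the ATP synthase. No expression value was used to choose them.

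RNA was sequenced from mouse bone marrow populations carrying a floxed allele of Kmt2c, which encodes the histone methyltransferase MLL3, and Vav-Cre, which is active in blood-forming and endothelial cells. In the first experiment, the untreated Kmt2c f/f; Vav-Cre mice (ko), Kmt2c f/+; Vav-Cre mice (het) and wild-type mice (wt), all 8 weeks old, gave 4 libraries each of haematopoietic stem cells (HSC), haematopoietic progenitor cells (HPC), pre-granulocyte-monocyte progenitors (pGM) and granulocyte-monocyte progenitors (GMP), 48 in all. In the second experiment, ko and wt mice, also 8 weeks old, received 0.5 µg of interleukin-1 (IL-1) per mouse, or phosphate-buffered saline (PBS), over 3 days. HSC and HPC were then collected. The second experiment holds 27 libraries, 4 in each HSC group except wt after IL-1, which has 3, and 3 in each HPC group. The wild-type label names no Cre, so in ko against wt and het against wt the loss of Kmt2c and the presence of Cre cannot be told apart. Whether replicates come from different animals is not stated, so a p-value reflects library-to-library spread only, part of which could be technical.

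The cell type label of the second experiment's HSC libraries names HPC, while their titles and source names say HSC, and they are treated as HSC here. Library totals ran from 13273928 to 20814531 counts in the first experiment and from 18649343 to 42826325 in the second. Levels are given as CPM, the count scaled to library size. Kmt2c averaged 18.9 CPM in ko HSC and 61.0 CPM in wt HSC of the first experiment, and it was lower in ko than in wt in the other 3 populations as well. Of the 3 libraries labelled wt HSC after IL-1, replicate 1 had 14.5 CPM of Kmt2c against 39.7 and 39.5 CPM in the others, so the comparisons that use it are also given without it. The summed CPM of the 10 HSC marker genes was 3131 to 3633 in wt HSC and 21.0 to 26.7 in wt GMP, and that of the 9 GMP marker genes was 112829 to 130915 in wt GMP. The 8 neutrophil markers, all detected, summed to 20.6 to 3454 CPM in wt HSC, where replicate 4 was the high library, and to 199 to 833 CPM in wt GMP. Other untreated groups were spread as well, at 10.2 to 2973 CPM in ko HSC, 19.3 to 3242 in het HSC and 17.6 to 3102 in ko HPC. The highest sum was 800 CPM in wt HPC, 872 in het HPC, and 760, 888 and 807 in ko, het and wt pGM. Their part in the results below was not tested, but results that moved without wt HSC replicate 4 are named.

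Oxidative phosphorylation passes electrons from NADH through complex I, or from succinate through complex II, by way of complex III to complex IV, which reduces oxygen. The proton gradient built on the way drives ATP synthesis by complex V. Mitochondrial DNA encodes core subunits of complexes I, III, IV and V, which are transcribed inside the organelle as long polycistronic RNAs, while all complex II subunits and the remaining subunits are transcribed from nuclear genes and imported. Quiescent HSC are known for low use of oxidative phosphorylation relative to the progenitors that arise from them.

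Some mitochondrial genes have near-identical copies in the nuclear genome, and a pair of them is shown because single counts of such genes are uncertain. A segment of mouse chromosome 1 holds 7 annotated copies of mitochondrial genes. Shown first are the opening 90 bases of mt-Co3 (chrM:8607-8696, plus strand), a complex IV core subunit, and of its copy Gm28437 (chr1:24613882-24613971, minus strand), which are the same. Then come the opening 90 bases of mt-Nd3 (chrM:9459-9548, plus strand), a complex I core subunit, and of its copy Gm28438 (chr1:24613030-24613119, minus strand), which differ at the base in capitals. All 4 come from the GENCODE M21 transcripts on GRCm38.
mt-Co3: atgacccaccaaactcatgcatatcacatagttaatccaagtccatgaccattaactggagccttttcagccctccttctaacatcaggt
Gm28437: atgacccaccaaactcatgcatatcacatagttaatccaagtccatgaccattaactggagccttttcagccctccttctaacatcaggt
mt-Nd3: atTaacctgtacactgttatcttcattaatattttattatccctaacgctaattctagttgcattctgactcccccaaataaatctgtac
Gm28438: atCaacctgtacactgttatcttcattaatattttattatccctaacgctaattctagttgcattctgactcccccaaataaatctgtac
Over the aligned lengths, the copies of mt-Co2, mt-Atp6, mt-Co3, mt-Nd4l and mt-Nd4 were 100% identical to the mitochondrial genes, the copy of mt-Co1 differed at 1 of 483 bases and that of mt-Nd3 at 1 of 345.

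Promoter sequences are shown for a pair of nuclear genes that rose along differentiation and for a pair of paralogs whose response to genotype is described further on. Each is the 300 bases from 250 before to 50 after the start in RefSeq on GRCm38.p6, with matches in capitals to a motif of the transcription factor NRF1 (GCGCA, any base, then GCGC) and to a motif of ETS factors such as GABPA (CCGGAAG). Both were searched on both strands, and CTTCCGG is the ETS motif read on the other strand. Cox6a1 is at chr5:115348909-115349208 (minus strand), Uqcrc1 at chr9:108936398-108936697 (plus), Cox6b1 at chr7:30626065-30626364 (minus) and Cox6b2 at chr7:4753045-4753344 (minus).
Cox6a1: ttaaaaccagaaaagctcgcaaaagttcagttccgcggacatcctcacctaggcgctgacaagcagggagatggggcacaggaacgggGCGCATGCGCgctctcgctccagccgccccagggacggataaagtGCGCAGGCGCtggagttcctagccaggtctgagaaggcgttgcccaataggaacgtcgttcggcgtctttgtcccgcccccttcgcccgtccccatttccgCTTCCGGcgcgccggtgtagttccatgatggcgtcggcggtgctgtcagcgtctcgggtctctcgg
Uqcrc1: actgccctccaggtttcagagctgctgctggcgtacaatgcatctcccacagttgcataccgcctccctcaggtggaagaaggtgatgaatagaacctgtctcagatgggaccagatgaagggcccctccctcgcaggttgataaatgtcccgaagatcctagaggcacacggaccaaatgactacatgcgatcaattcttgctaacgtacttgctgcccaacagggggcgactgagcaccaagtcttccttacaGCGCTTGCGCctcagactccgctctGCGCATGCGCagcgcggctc
Cox6b1: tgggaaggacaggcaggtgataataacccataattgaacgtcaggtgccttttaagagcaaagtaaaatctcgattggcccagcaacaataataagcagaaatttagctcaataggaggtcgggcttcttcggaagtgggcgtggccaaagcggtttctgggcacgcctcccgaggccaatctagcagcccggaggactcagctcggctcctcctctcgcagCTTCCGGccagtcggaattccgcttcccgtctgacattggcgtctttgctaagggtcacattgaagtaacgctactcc
Cox6b2: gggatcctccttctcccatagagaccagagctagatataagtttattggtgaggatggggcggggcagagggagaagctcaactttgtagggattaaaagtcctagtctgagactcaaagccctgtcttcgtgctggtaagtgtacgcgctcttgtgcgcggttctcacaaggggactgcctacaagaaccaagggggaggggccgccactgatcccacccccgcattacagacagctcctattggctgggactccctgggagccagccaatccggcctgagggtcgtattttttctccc
Of the nuclear genes, 74 matched the RefSeq table, with 79 promoters. The NRF1 motif was in 20 of the 79 (25.3%), against 4.60% of all 32851 mouse promoters of the same length. The ETS motif was in 18 (22.8%), against 8.86%, and 4 (5.06%) held both, against 0.892%. Cox6b2 had neither in this window, and Cox6a2 is not in the table used.

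Along differentiation in untreated wt mice, most nuclear genes rose, while of the mitochondrial genes tested 1 was called, lower in GMP. Of the 93 nuclear genes, 89 had enough counts to be tested, and relative to HSC 50 rose in HPC, 73 rose in pGM and 81 rose and 1 fell in GMP, with calls made below an adjusted p of 0.05 (edgeR quasi-likelihood test, Benjamini-Hochberg over 15110 genes). The median nuclear log2 fold change was 0.50 in HPC, 0.71 in pGM and 1.24 in GMP, which is 1.41-fold, 1.63-fold and 2.36-fold, while the median of all genes was -0.02 in HPC, -0.02 in pGM and -0.16 in GMP. Genes called higher made up 12.5% of all genes in HPC, 20.7% in pGM and 27.5% in GMP, and genes called in either direction 22.8%, 41.4% and 61.2%. The 3 comparisons share the same 4 HSC libraries. In bulk samples, fewer cells with a transcript and less of it in each cell cannot be told apart, and CPM is a share of the RNA that says nothing about RNA per cell.

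**Figure D1:**
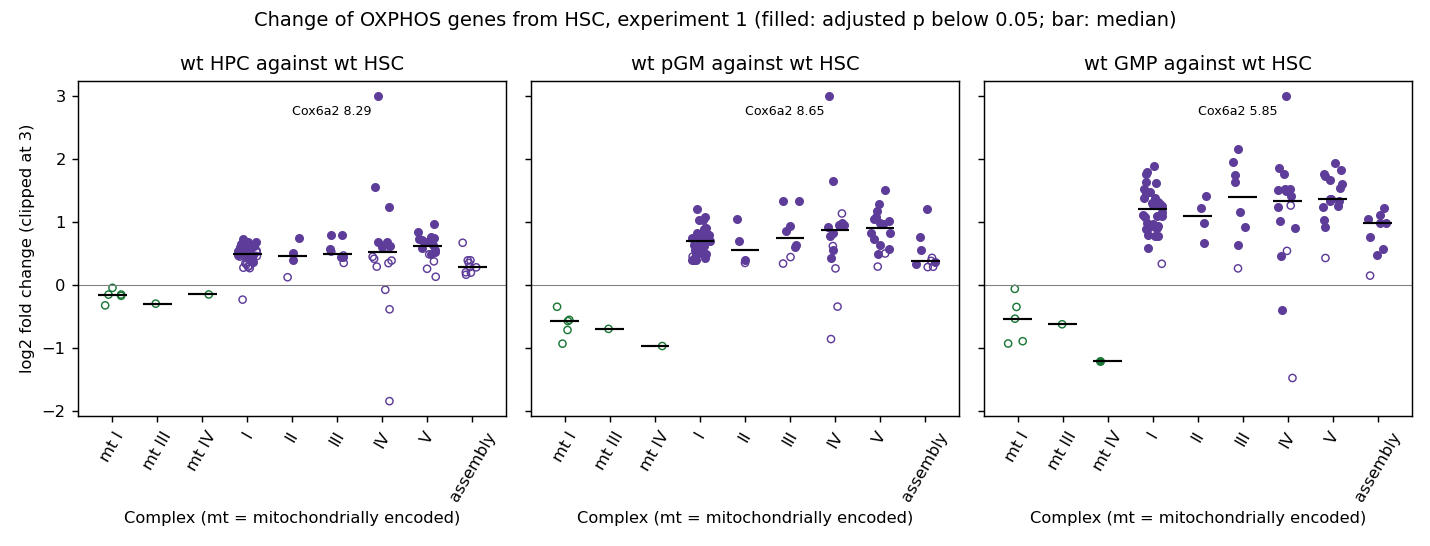
The 3 panels plot the log2 fold change of each tested gene in wt HPC, pGM and GMP against wt HSC, untreated, by complex, with nuclear genes and mitochondrially encoded genes (mt) in separate columns. Filled points passed the adjusted p threshold and bars mark medians; the nuclear medians of 0.50, 0.71 and 1.24 lie above 0, and the mitochondrial medians of -0.15, -0.70 and -0.62 lie below it.

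Complex I, the entry point of electrons from NADH, had 36 nuclear genes tested, of which 23 rose in HPC, 34 in pGM and 35 in GMP, with median log2 fold changes of 0.50, 0.70 and 1.21. Ndufb7, an accessory subunit at chr8:83566671-83571626 (plus strand, GRCm38), had 140, 148, 156 and 129 CPM in the 4 wt HSC libraries, 257, 269, 199 and 228 CPM in HPC, 319, 311, 340 and 360 CPM in pGM, and 558, 468, 619 and 491 CPM in GMP. None of the 4 populations' ranges overlapped. The log2 fold changes of Ndufb7 from HSC were 0.73 ± 0.18 (SE) in HPC, 1.21 ± 0.18 in pGM and 1.90 ± 0.18 in GMP, with edgeR adjusted p of 0.0020, 5.91e-07 and 5.66e-12. Ndufs1, the largest core subunit, changed less, by 0.27 ± 0.13 in HPC, which missed the threshold (edgeR adjusted p = 0.123), 0.48 ± 0.13 in pGM and 0.89 ± 0.13 in GMP. Ndufab1, the mitochondrial acyl carrier protein, was the only complex I gene not called in GMP, at 11.1 CPM against 8.78 CPM in HSC.

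Complex II, succinate dehydrogenase, links the chain to the tricarboxylic acid cycle. Of its 4 genes, 3 rose in HPC, 3 in pGM and all 4 in GMP, with median log2 fold changes of 0.46, 0.55 and 1.1. Sdhb, the iron-sulphur subunit (chr4:140961203-140979193, plus), had 250, 288, 294 and 239 CPM in wt HSC, 511, 490, 399 and 392 CPM in HPC, 516, 506, 574 and 630 CPM in pGM, and 633, 552, 739 and 573 CPM in GMP. Every progenitor library was above every HSC library. For Sdhb the log2 fold changes were 0.74, 1.06 and 1.22, each ± 0.14 (SE). Sdha, the flavoprotein subunit, was the gene not called in HPC (log2 fold change 0.13 ± 0.19) and in pGM (0.35 ± 0.19).

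Complex III moves electrons from ubiquinol to cytochrome c. Of 8 nuclear genes, 5 rose in HPC, 6 in pGM and 7 in GMP, with median log2 fold changes of 0.50, 0.75 and 1.4. Uqcrq, a small accessory subunit (chr11:53427922-53430831, minus), had 204, 170, 190 and 196 CPM in wt HSC, 383, 327, 243 and 368 CPM in HPC, 409, 392, 519 and 601 CPM in pGM, and 953, 655, 1009 and 793 CPM in GMP. No range of one population overlapped that of another. Its log2 fold changes were 0.80 ± 0.21, 1.34 ± 0.21 and 2.17 ± 0.22. Uqcrc1, a core subunit whose promoter with 2 NRF1 motifs is printed above, rose by 0.44 ± 0.13, 0.86 ± 0.13 and 1.63 ± 0.13. Uqcrh, the hinge protein, was not called in any of the 3 populations.

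Complex IV, cytochrome c oxidase, reduces oxygen to water. Of the 16 nuclear genes tested, 7 rose in HPC, 11 in pGM and 12 in GMP, with median log2 fold changes of 0.52, 0.87 and 1.34, and 1 fell in GMP. Ndufa4, first assigned to complex I and now placed in complex IV (chr6:11900292-11907497, minus), had 359, 332, 305 and 278 CPM in wt HSC, 1188, 986, 703 and 861 CPM in HPC, 916, 982, 1049 and 1070 CPM in pGM, and 1216, 873, 1278 and 953 CPM in GMP. The HSC libraries were far below all others, and the 3 progenitor populations overlapped. The rise of Ndufa4 was already 1.55 ± 0.25 on the log2 scale in HPC, and it was 1.66 ± 0.25 in pGM and 1.76 ± 0.25 in GMP (edgeR adjusted p = 4.29e-06, 5.9e-07 and 5.65e-08).

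Cox7a2l, a supercomplex assembly factor (chr17:83501918-83517330, minus), was the nuclear gene that fell in GMP. It had 202, 168, 195 and 157 CPM in wt GMP against 244, 250, 238 and 219 CPM in wt HSC, without overlap. The log2 fold change was -0.40 ± 0.17 (edgeR adjusted p = 0.0399). Leaving out GMP wt replicate 2 or 4, or HSC wt replicate 1, 2 or 3, ended the call (adjusted p up to 0.0802 in edgeR). Its paralog Cox7a2, a structural subunit, rose by 0.68 ± 0.21, 0.96 ± 0.21 and 1.86 ± 0.22 in HPC, pGM and GMP.

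Complex V, the ATP synthase, had 16 genes tested, of which 12 rose in HPC, 14 in pGM and 15 in GMP, with median log2 fold changes of 0.62, 0.91 and 1.37. Atp5o, the subunit that joins the catalytic head to the peripheral stalk (chr16:91925214-91931687, minus), had 291, 313, 322 and 271 CPM in wt HSC, 599, 567, 398 and 443 CPM in HPC, 564, 566, 641 and 704 CPM in pGM, and 1044, 890, 1182 and 863 CPM in GMP. HPC and pGM overlapped, and both lay between HSC and GMP. Log2 fold changes of Atp5o were 0.75, 1.05 and 1.73, each ± 0.17. Atp5a1, the catalytic head's alpha subunit, reached 0.26 ± 0.13 in HPC (edgeR adjusted p = 0.143), 0.58 ± 0.13 in pGM and 1.23 ± 0.13 in GMP. Of the 9 genes that are not subunits, 0 were called in HPC, 5 rose in pGM and 8 in GMP, Atp5s being the exception in GMP, and Ndufaf4 rose by 0.76 ± 0.18 in pGM and 1.11 ± 0.18 in GMP.

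The mean level followed the order HSC, HPC, pGM, GMP at every step for 75 of the 89 tested nuclear genes (84.3%). The same order held for 18.4% of all 15110 genes and for 39.9% of the 3921 genes with a mean of at least 50 CPM. The highest mean was in GMP for 82 of the 89. None of the 7 mitochondrial genes tested followed that order, and all 7 had their highest mean in HSC. The HPC count depended on single libraries: it was 19 without HPC wt replicate 1, 27 without HPC wt replicate 2 and 24 without HSC wt replicate 4, against 50 with all libraries. Over all such omissions, 61 to 74 nuclear and mitochondrial genes were called in pGM and 80 to 83 in GMP.

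Of the 13 mitochondrial genes, 7 were tested in the first experiment, the complex I subunits mt-Nd1, mt-Nd2, mt-Nd4, mt-Nd5 and mt-Nd6, the complex III subunit mt-Cytb and the complex IV subunit mt-Co1. All 7 had lower means in wt HPC, pGM and GMP than in wt HSC, with median log2 fold changes of -0.15, -0.70 and -0.62. In HPC edgeR and DESeq2 called 0, and 0 had an unadjusted p below 0.05. In pGM edgeR called 0, with 2 below an unadjusted p of 0.05 and 1 called by DESeq2. In GMP edgeR called 1 lower, with 3 below an unadjusted p of 0.05 and 3 called by DESeq2. Genes called lower by edgeR made up 10.2%, 20.7% and 33.7% of all genes in HPC, pGM and GMP. The shares in DESeq2 are not given here.

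The called gene was mt-Co1, the catalytic core subunit of cytochrome c oxidase (chrM:5328-6872, plus). It had 3638, 3463, 2029 and 2582 CPM in wt HSC, 2763, 3139, 2515 and 2148 CPM in HPC, 1719, 2354, 1360 and 558 CPM in pGM, and 1307, 1526, 1368 and 877 CPM in GMP. GMP lay below HSC without overlap, as did 30.7% of all genes. In GMP the log2 fold change of mt-Co1 was -1.21 ± 0.47 (edgeR adjusted p = 0.0268), and the call was lost without GMP wt replicate 4, HSC wt replicate 1 or HSC wt replicate 2 (adjusted p up to 0.0698 in edgeR).

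Other mitochondrial transcripts had smaller fold changes in GMP. The first protein-coding gene after the ribosomal RNAs, mt-Nd1 (chrM:2751-3707), had 2290, 1916, 1252 and 1504 CPM in wt HSC, 1807, 1972, 1639 and 1339 CPM in HPC, 1627, 2039, 1304 and 518 CPM in pGM, and 1775, 1840, 1980 and 1086 CPM in GMP. All 4 ranges overlapped, and the log2 fold change in GMP was -0.06 ± 0.45. For mt-Cytb, which encodes cytochrome b, it was -0.29 ± 0.48 in HPC, -0.69 ± 0.48 in pGM and -0.62 ± 0.48 in GMP, none of them called. The pGM wt library with the lowest level was replicate 4 for both genes.

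As a share of all counts, the 13 mitochondrial genes made up 1.21 ± 0.33% in wt HSC, 0.95 ± 0.13% in HPC, 0.63 ± 0.32% in pGM and 0.50 ± 0.11% in GMP (SD, n = 4 each). The 93 nuclear genes made up 1.99 ± 0.08%, 2.57 ± 0.25%, 2.77 ± 0.11% and 3.06 ± 0.34%. The mitochondrial share was noisier. Within a group, its highest library exceeded its lowest by 1.37-fold to 5.79-fold in the first experiment, against 1.09-fold to 1.36-fold for the nuclear share. The median SD between replicates was 0.66 on the log2 CPM scale for mitochondrial genes, 0.26 for nuclear genes and 0.24 for all genes of at least 50 CPM.

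**Figure D2:**
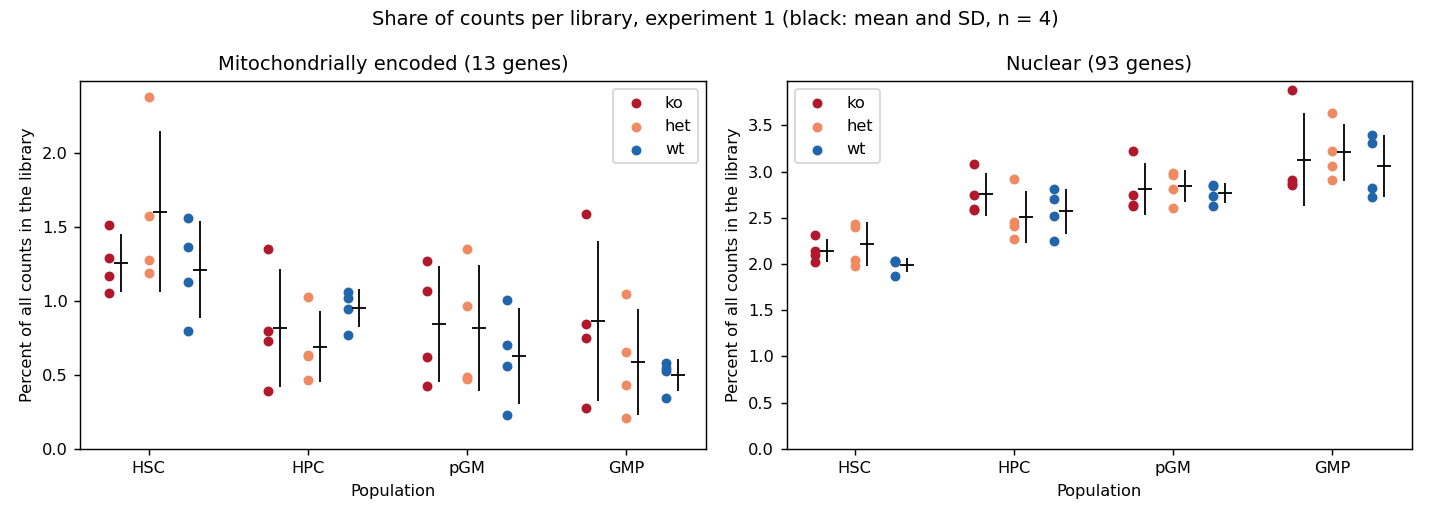
Each point is 1 untreated library, placed by population and by genotype (ko, het, wt), and the axis gives the percent of all counts that fell on mitochondrial or nuclear oxidative phosphorylation genes, with mean and SD in black (n = 4). In wt, the nuclear mean is 1.99% in HSC and 3.06% in GMP, and the mitochondrial mean is 1.21% in HSC and 0.50% in GMP with more scatter relative to the mean in each of the 4 wt populations.

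Per kilobase of exon, mitochondrial transcripts headed the set in both end populations. In wt HSC, mt-Cytb had 2928 CPM per kb, mt-Co1 1895 and mt-Nd1 1819, and the highest nuclear genes were Cox4i1, the major isoform of cytochrome c oxidase subunit 4, at 617 CPM per kb and Atp5a1 at 478 CPM per kb. There mt-Nd4, mt-Nd6, mt-Nd5 and mt-Nd2 had 454, 451, 444 and 434 CPM per kb, below both. In wt GMP, mt-Cytb had 1903 CPM per kb and mt-Nd1 1745, against 1243 for Cox4i1 and 1124 for Atp5a1. In GMP mt-Co1, at 822 CPM per kb, lay below these nuclear genes and others such as Uqcr10, at 907.

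Ratios between mitochondrial genes of the same library, chosen after their values were seen and given without a test, were far tighter than the levels. The count ratio mt-Co1 to mt-Nd1 was 1.59 to 1.81 in wt HSC, 1.53 to 1.60 in HPC, 1.04 to 1.15 in pGM and 0.69 to 0.83 in GMP. HSC and HPC overlapped, and pGM and GMP lay apart from them and from each other. The group means were 1.60, 1.5, 1.02 and 0.88 in ko and 1.61, 1.55, 1.08 and 0.82 in het, in the same order of populations. The ratio mt-Cytb to mt-Nd1 averaged 1.93, 1.62, 1.48 and 1.31 in wt. In the second experiment mt-Co1 to mt-Nd1 was 3.36 ± 0.81 in wt HPC after PBS and 4.19 ± 0.74 in wt HSC after PBS (SD, n = 3 and 4), on a different scale and with overlap.

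**Figure D3:**
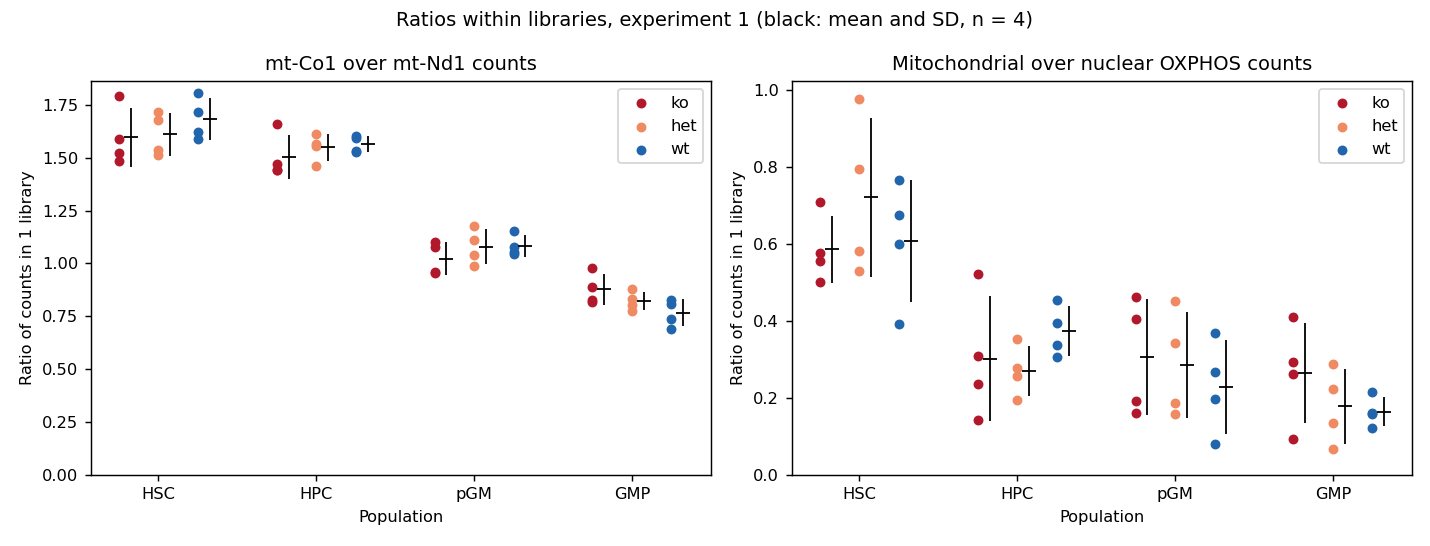
Each point is the ratio of 2 counts within 1 untreated library, by population and genotype (ko, het, wt), with mean and SD in black (n = 4). The mt-Co1 to mt-Nd1 ratio in wt averages 1.68 in HSC, 1.57 in HPC, 1.08 in pGM and 0.77 in GMP.

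Cox6a2, the isoform of subunit 6a known from heart and skeletal muscle (chr7:128205435-128206387, minus), was almost absent from HSC, with 4 counts in 64277131 over the 4 wt libraries. It had 18.1, 24.2, 17.4 and 15.1 CPM in wt HPC, 25.1, 18.6, 25.1 and 27.1 CPM in pGM, and 5.11, 2.24, 2.83 and 3.60 CPM in GMP. Against the 4 counts in HSC, the ratio of counts per total was 321 (95% exact interval 125 to 1180) in HPC, 379 (148 to 1392) in pGM and 42.7 (16.4 to 158) in GMP, intervals that cover counting error only. In the second experiment all 15 HSC libraries had 0 counts, so that Cox6a2 was at least 669-fold higher in wt HPC than in wt HSC after PBS and at least 1950-fold higher after IL-1, or at least 1277-fold without wt IL-1 HSC replicate 1, taking 3 counts over the group as the floor. Its exons overlap those of Itgad, and no source used here gives the strandedness of the counting. Per kilobase, Cox6a2 had 27.5 CPM in wt HPC, 35.3 in wt pGM and 5.07 in wt GMP. Its ubiquitous paralog Cox6a1 had 455, 571 and 849.

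Other paralogs with restricted expression were low. In wt HSC, Cox4i2, the oxygen-regulated lung isoform, had 11.6 CPM per kb and Cox7a1, the muscle isoform, 1.06. Cox6b2, the testis isoform of subunit 6b, had 43.2 CPM per kb in wt HSC and 59.2 in wt GMP, against 311 and 826 for Cox6b1. Cox7b2, Cox8b, Cox8c and Ndufa4l2 had at most 6 counts in any library and were not tested.

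Few genes were called for genotype, among the oxidative phosphorylation genes as among all genes. In ko against wt, edgeR called 0 of 88 nuclear genes in HSC, 1 of 89 in HPC, 2 in pGM and 0 in GMP, where 1.78%, 1.1%, 1.94% and 0.555% of all genes were called in either direction. An unadjusted p below 0.05 was reached by 2, 2, 2 and 4 of them, and DESeq2 called 0 in HSC and 1 in GMP. The nuclear median log2 fold changes were 0.12, 0.10, 0.04 and 0.00, against 0.01, 0.02, 0.02 and 0.03 for all genes. All called genes were the complex IV paralogs Cox6b2 and Cox6a2.

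Cox6b2 was higher in ko progenitors. In HPC it had 95.4, 74.9, 81.0 and 76.4 CPM in ko, 68.3, 58.4, 51.8 and 52.9 CPM in het, and 57.7, 43.5, 40.2 and 40.4 CPM in wt. Every ko library was above every het and wt library, and in ko against wt 2.98% of all genes shared that separation. The log2 fold change in ko against wt was 0.85 ± 0.17 (edgeR adjusted p = 0.0154). In pGM Cox6b2 had 107, 107, 106 and 117 CPM in ko, 82.8, 95.6, 101 and 103 CPM in het, and 72.9, 84.5, 80.3 and 90.5 CPM in wt. Again ko stood above het and wt without overlap, with a log2 fold change of 0.42 ± 0.10 against wt (edgeR adjusted p = 0.0331), and 2.64% of all genes were separated from wt in this way. With Y-linked expression as a covariate the adjusted p was 0.134 in HPC and 0.190 in pGM in edgeR, which ended both calls. The HPC call was also lost without ko replicate 1 or wt replicate 2, 3 or 4, and the pGM call with all libraries in 1 fit and in 7 of the 8 omissions of a single library, all but that of wt replicate 4.

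Cox6b2 in the end populations was not called. In GMP it had 99.3, 106, 101 and 79.4 CPM in ko, 74.5, 86.9, 74.3 and 86.2 CPM in het, and 75.5, 57.7, 73.5 and 55.9 CPM in wt. The ko libraries were above the wt libraries without overlap, as were 3.3% of all genes, at a log2 fold change of 0.56 ± 0.16 and an edgeR adjusted p of 0.171. In HSC the ko libraries overlapped wt, with 51.4, 54.1, 56.6 and 62.1 CPM in ko and 50.2, 53.7, 44.4 and 43.1 CPM in wt.

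Cox6a2 was lower in ko progenitors, opposite to Cox6b2. In pGM it had 7.40, 5.78, 8.58 and 5.98 CPM in ko, 17.1, 23.0, 14.2 and 24.4 CPM in het, and 25.1, 18.6, 25.1 and 27.1 CPM in wt. All ko libraries lay below all het and wt libraries, and het overlapped wt; 3.59% of all genes had all ko libraries below all wt libraries. Against wt the log2 fold change was -1.78 ± 0.20 (edgeR adjusted p = 9.29e-05), and against het, which carries Cre as ko does, it was -1.50 ± 0.20 (edgeR adjusted p = 0.00118), where 0.564% of all genes were called. In HPC it had 10.7, 10.5, 10.8 and 7.17 CPM in ko, 11.2, 19.6, 10.8 and 28.2 CPM in het, and 18.1, 24.2, 17.4 and 15.1 CPM in wt. The ko libraries lay below the wt libraries without overlap, as for 3.98% of all genes, yet the log2 fold change of -0.94 ± 0.29 missed the threshold (edgeR adjusted p = 0.203). In GMP it was -1.05 ± 0.35 (edgeR adjusted p = 0.278), without overlap on the TMM scale, as for 3.79% of all genes, while as CPM of the library total ko reached 1.87 and wt started at 1.70.

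Summed markers of some other cell types were lower in the same ko libraries. The sums also differed between sorted populations. In wt HSC, HPC, pGM and GMP the lymphocyte markers averaged 144, 752, 947 and 2725 CPM in sum. The megakaryocyte markers averaged 2169, 540, 314 and 30.6 CPM. Whether such sums come from other cells or from the sorted cells was not tested. The 8 lymphocyte markers, of which 4 averaged at least 1 CPM, summed to 450 to 576 CPM in ko pGM, 870 to 938 in het and 890 to 1044 in wt. In HPC they summed to 389 to 478 CPM in ko, 516 to 714 in het and 659 to 888 in wt. Most of the sum was Nkg7, a granule protein of cytotoxic lymphocytes, at means of 499 CPM in ko pGM, 874 in het and 907 in wt, while the T-cell markers Cd3e and Cd8a had 0 counts in wt pGM. In HPC the 7 megakaryocyte markers summed to 286 to 318 CPM in ko and 425 to 633 CPM in wt, and the 8 macrophage markers to 38.8 to 88.9 CPM in ko and 92.5 to 154 CPM in wt. The part of these markers in the values of Cox6a2 and Cox6b2 was not tested. In GMP the sums of all 5 such lists overlapped between ko and wt.

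**Figure D4:**
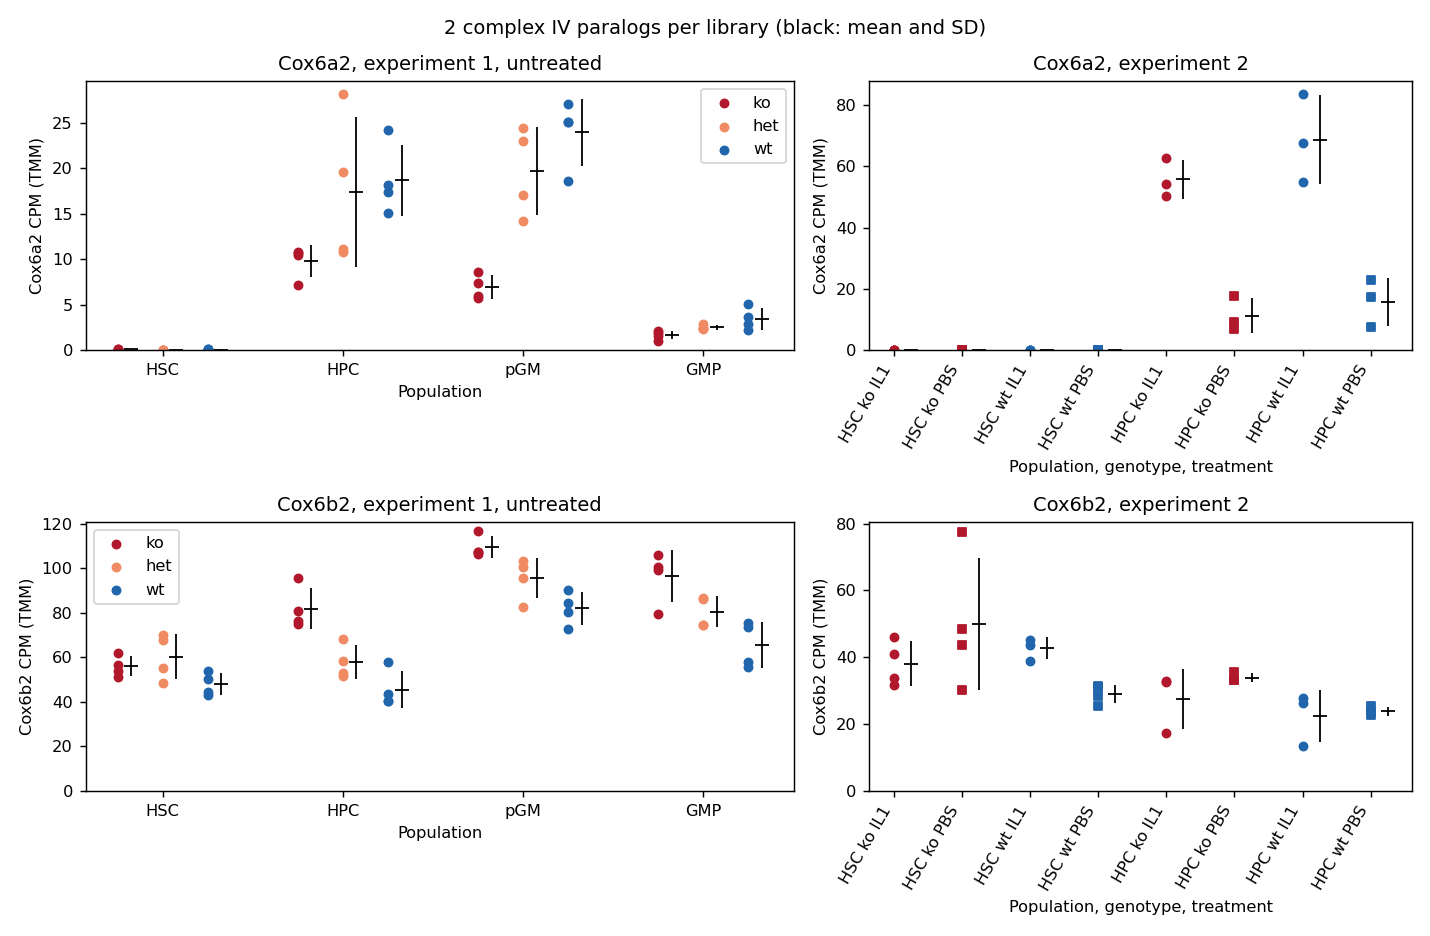
Each point is the TMM-scaled CPM of Cox6a2 or Cox6b2 in 1 library, by population and genotype in the first experiment and by population, genotype and treatment in the second, with mean and SD in black. In pGM, Cox6a2 lies between 5.78 and 8.58 CPM in ko and between 18.6 and 27.1 CPM in wt, and Cox6b2 lies between 106 and 117 CPM in ko and between 72.9 and 90.5 CPM in wt.

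Heterozygotes gave no calls. In het against wt, edgeR and DESeq2 called 0 oxidative phosphorylation genes in each of the 4 populations, where 0.00724% of all genes were called in HSC, 0.00753% in HPC, 0.0155% in pGM and 0.00828% in GMP. An unadjusted p below 0.05 was reached by 12 genes in HSC, 2 mitochondrial and 10 nuclear, by 1 in HPC, 4 in pGM and 0 in GMP. In ko against het, apart from Cox6a2 in pGM, edgeR and DESeq2 called 0 in any population, with 1, 2, 2 and 0 genes below an unadjusted p of 0.05 in HSC, HPC, pGM and GMP, and 0.326%, 0.196%, 0.564% and 0.0166% of all genes called. For the change in ko against wt, the differences HPC minus HSC, pGM minus HSC and GMP minus HSC gave 0 calls in edgeR and DESeq2, with 2, 1 and 7 genes below an unadjusted p of 0.05, where 0.232%, 0.218% and 0.39% of all genes were called.

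Mitochondrial genes were not called for genotype in the first experiment. The median log2 fold change of the 7 was -0.01 in HSC, -0.24 in HPC, 0.42 in pGM and 0.65 in GMP in ko against wt, and 0.32, -0.45, 0.37 and 0.16 in het against wt. For ko against wt 0 of the 7 had an unadjusted p below 0.05 in any population. The groups overlapped in every population for all 7. In GMP the mitochondrial share of counts was 0.863 ± 0.542% in ko, 0.585 ± 0.358% in het and 0.500 ± 0.106% in wt (SD, n = 4 each).

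In the second experiment, the comparison of wt HPC with wt HSC after PBS called few genes. Of 89 nuclear genes 2 rose in HPC, where 6.46% of all genes were called higher and 13.8% in either direction, with a nuclear median log2 fold change of 0.14 against -0.02 for all genes. They were Cox6a2 and Ndufa4, the second at 0.94 ± 0.30 (edgeR adjusted p = 0.0329). The Ndufa4 call was lost without HPC replicate 1 or 2 or HSC replicate 1, 2 or 3 (edgeR adjusted p up to 0.220). Of 13 mitochondrial genes 0 were called by edgeR or DESeq2 and 0 had an unadjusted p below 0.05, with a median of -0.74. The difference from the untreated mice, where 50 nuclear genes rose in HPC, was not tested.

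IL-1 raised a single oxidative phosphorylation gene in HPC of each genotype, Cox6a2. In ko HPC it had 50.4, 62.7 and 54.1 CPM after IL-1 against 9.27, 17.8 and 6.91 CPM after PBS. In wt HPC it had 54.8, 67.6 and 83.6 CPM after IL-1 against 22.9, 17.3 and 7.45 CPM after PBS. The treated libraries stood above the PBS libraries without overlap in both genotypes, as did 6.31% of all genes in ko and 6.73% in wt. The log2 fold change was 2.31 ± 0.39 in ko and 2.11 ± 0.39 in wt (edgeR adjusted p = 0.0159 in each), where 0.433% and 0.947% of all genes were called. Single libraries decided both calls: they were lost without ko IL-1 replicate 2, ko PBS replicate 1 or ko PBS replicate 3 in ko, and without wt IL-1 replicate 3 or wt PBS replicate 2 in wt. Itgad, whose exons overlap those of Cox6a2, averaged 1.31 CPM after IL-1 and 1.88 CPM after PBS in ko HPC, and 2.28 and 1.63 CPM in wt HPC.

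Summed markers of some other cell types also stood apart in the same HPC libraries, and their part in the Cox6a2 values was not tested. Whether these sums come from other cells or from the sorted HPC was not tested either. The 8 erythroid markers summed to 101 to 136 CPM after IL-1 against 30.5 to 79.4 CPM after PBS in ko, and to 150 to 266 CPM after IL-1 against 46.4 to 77.2 CPM after PBS in wt. Most of this was the globin gene Hbb-bt, while the erythroid genes Alas2 and Slc4a1 averaged under 1 CPM in all 4 groups. The 7 megakaryocyte markers summed to 87.9 to 229 CPM after IL-1 against 287 to 375 CPM after PBS in ko, and to 162 to 179 CPM after IL-1 against 299 to 532 CPM after PBS in wt. In ko, the ranges were also apart for neutrophil markers, at 24.0 to 91.6 CPM after IL-1 and 6.42 to 10.1 CPM after PBS, and for lymphocyte markers, at 196 to 239 CPM after IL-1 and 261 to 350 CPM after PBS.

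The other 88 tested nuclear genes were not called for IL-1 in HPC of either genotype. Their set's median log2 fold change, Cox6a2 included, was 0.26 in ko and 0.19 in wt, against 0.00 and -0.01 for all genes. In ko HPC 31 of the 89 had all IL-1 libraries above all PBS libraries, and in wt HPC 6 did, against the 6.31% and 6.73% of all genes given above. In the test of the difference between the IL-1 change in ko HPC and that in wt HPC, edgeR and DESeq2 called 0 oxidative phosphorylation genes, 0 were below an unadjusted p of 0.05 and 0% of all genes were called.

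In HSC, edgeR and DESeq2 called 0 oxidative phosphorylation genes for IL-1 in ko or in wt, where 0.212% and 0.2% of all genes were called, and 5 in ko and 1 in wt, with or without wt IL-1 replicate 1, had an unadjusted p below 0.05. The 13 mitochondrial genes had a median log2 fold change of -0.26 in ko and 0.92 in wt, the second being 1.16 without wt IL-1 replicate 1. Their share of counts was 0.257, 0.561, 0.452 and 1.70% in ko after IL-1, 0.490, 0.393, 0.780 and 1.54% in ko after PBS, 1.23, 2.63 and 1.80% in wt after IL-1, and 0.448, 0.640, 0.813 and 2.42% in wt after PBS. All 4 groups overlapped one another, and replicate 4 was the highest in each of the 3 groups that have one. The group of wt after IL-1 has no replicate 4, and it overlapped the others only through their replicate 4. Among replicates 1 to 3 it lay above the other groups. With all libraries and the replicate number as a block, edgeR called 12 mitochondrial genes higher for IL-1 in wt HSC. The share of all genes under the block is not given here, so this count has nothing to be read against. Deviations of same-numbered libraries correlated at -0.35 to 0.03 here, below the 0.1 at which numbers were taken to pair libraries. The block also changed other HSC counts, as listed at the end. For the IL-1 change in wt HPC minus that in wt HSC, the mitochondrial median was -1.55 (-1.75 without wt IL-1 HSC replicate 1), with 0 called by edgeR and DESeq2, 2 below an unadjusted p of 0.05 (3 without that library) and 0.0228% of all genes called.

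Between genotypes after IL-1, the mitochondrial genes had lower values in ko HSC than in wt HSC, at a median log2 fold change of -1.42, or -1.67 without wt IL-1 replicate 1. Of the 13, edgeR and DESeq2 called 0 and 5 had an unadjusted p below 0.05, where 0% of all genes were called. Without that library edgeR called 0 of the 13 and 7 had an unadjusted p below 0.05, while 0.932% of all genes were called. With all libraries and the replicate number as a block, edgeR called 12 of the 13 lower in ko. The share of all genes under the block is not given here, so this count has nothing to be read against. The replicate numbers did not meet the correlation rule for pairing these libraries. After PBS the median was -0.29 with 0 below an unadjusted p of 0.05, and 0.798% of all genes were called. The test of whether the IL-1 change differed between ko and wt HSC gave 0 calls in edgeR and DESeq2, with 5 oxidative phosphorylation genes below an unadjusted p of 0.05 and 0% of all genes called. The mitochondrial median of that difference was -1.10, and without the library it was -1.33, with 6 genes below an unadjusted p of 0.05. In HPC after PBS the mitochondrial median was -0.83 in ko against wt. There edgeR called 0 of them and 0.257% of all genes, and 6 were below an unadjusted p of 0.05 in edgeR. DESeq2 called 2 lower, mt-Co3 and mt-Nd3, and its share of all genes is not given here. In HPC after IL-1 the mitochondrial median was -0.05, with 0 called by edgeR and DESeq2. None had an unadjusted p below 0.05 in edgeR, which called 0.201% of all genes. Cox6b2 was not called in either population after either treatment. In HPC after PBS it had 35.5, 33.1 and 33.1 CPM in ko against 25.4, 22.6 and 23.6 CPM in wt, without overlap, as for 6.81% of all genes, at a log2 fold change of 0.50 ± 0.28 (edgeR adjusted p = 0.628).

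The 2 count tables differed in which mitochondrial genes had counts, and 7 could be tested in the first. There, mt-Co2, mt-Atp8, mt-Atp6, mt-Co3, mt-Nd3 and mt-Nd4l had at most 6 counts in any of the 48 libraries. In the second experiment they had medians of 2184, 91, 4198, 7689, 200 and 33 counts. The chromosome 1 copy Gm28437, identical to mt-Co3 in the sequence printed above, had a median of 1 count in the first experiment and 8634 in the second. Gm28438, which differs from mt-Nd3 by a single base, had a median of 18 counts in the first, above 0 in all 48 libraries, and 2062 in the second. No source used here states how reads with several matches were counted, so single values of these genes are uncertain, and no difference in level between the experiments was tested.

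**Figure D5:**
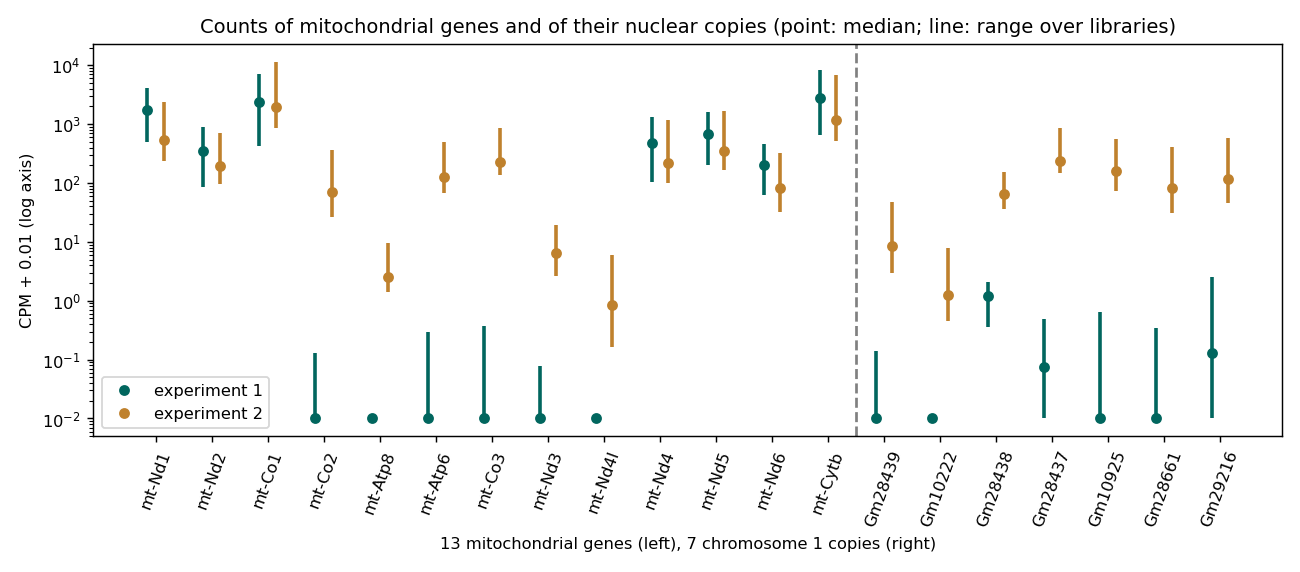
Points give the median and lines the range over libraries of the CPM plus 0.01, on a log axis, of the 13 mitochondrial genes (left) and of 7 copies on chromosome 1 (right), in the first and the second experiment. Of the mitochondrial genes, 6 have at most 6 counts per library in the first experiment and medians of 33 to 7689 counts in the second.

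Some nuclear genes differed between the tables as well. Ndufab1, Ndufb4, Cox7c, Atp5g1, Atp5g2 and Atp5l had under an eighth of their second-experiment CPM in the first, for example 1.95 CPM against 258 CPM for Atp5g2, a gene of the membrane ring of ATP synthase. Of the 93 nuclear genes, 27 share exon positions with another annotated gene, so part of their counts may belong to it.

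Other lists of mitochondrial genes are read against the 12.5% of all genes called higher in HPC, 20.7% in pGM and 27.5% in GMP. In GMP against HSC, 65 of 76 tested mitochondrial ribosomal protein genes rose and 2 fell (median log2 fold change 1.03), with 35 higher and 1 lower in HPC and 56 higher in pGM. Mrpl37, a protein of the large mitoribosomal subunit, averaged 146 ± 18.0 CPM in GMP and 46.4 ± 2.28 CPM in HSC (SD, n = 4 each). Tricarboxylic acid cycle genes rose in 15 of 17 cases in GMP (median 1.13), 14 in pGM and 5 in HPC. Mdh2, mitochondrial malate dehydrogenase, averaged 2169 ± 128 CPM in GMP and 786 ± 99.5 CPM in HSC.

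Of 43 tested assembly factors and electron carriers outside the rule, 22 rose and 4 fell in GMP (median 0.44), 14 rose in pGM and 10 in HPC. Foxred1, a complex I assembly factor, averaged 168 ± 14.1 CPM in GMP and 60.9 ± 13.5 CPM in HSC. Genes for expression of mitochondrial DNA rose in 13 of 28 cases and fell in 3 in GMP (median 0.37), with 7 higher in pGM (25%) and 2 in HPC (7.14%), the second below the share of all genes. Tbrg4, also known as FASTKD4 and a regulator of mitochondrial messenger RNA, averaged 191 ± 25 CPM in GMP and 39.4 ± 3.93 CPM in HSC. All 15 mitosis genes rose in each of the 3 populations, and their summed CPM was 1703 to 1978 in wt GMP and 625 to 749 in wt HSC, and the part of this in the results above was not tested.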

How the data were processed

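Whole-number counts per gene were deposited by the authors as 2 tables, 1 per experiment, both with the same 41388 mouse gene IDs. STAR 3.0.4, Subread and featureCounts 1.4.5 are named in the submitters' processing notes. No source used here gives the genome build, the strandedness or the handling of reads with several matches. Of the IDs, 40340 matched GENCODE M21 on GRCm38, which gave symbols and positions, and 3 entries of the first table that are not mouse gene IDs (9.57e-05% of counts) were left out.

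Counts were filtered (edgeR filterByExpr, minimum count 10, minimum total 15), scaled by TMM and tested with edgeR 4.0.16 quasi-likelihood fits (robust) in R 4.3.3. There were 8 fits for 30 comparisons, with p-values adjusted by Benjamini-Hochberg over all genes of a fit and a threshold of 0.05. Genotype and IL-1 comparisons used 1 fit per population and experiment, comparisons between populations 1 fit per experiment. CPM per library is TMM-scaled over all libraries of its experiment, except for shares, Kmt2c, Itgad and summed markers, which use library totals. Ratios against few counts have exact 95% intervals. Alternatives were DESeq2 1.42.0, RLE scaling, no filter, 1 fit per experiment, a replicate block, a Y-linked covariate (log2 of summed Y-linked CPM plus 1) and leaving out each library (80 and 40 refits). On simulated data the fit recovered 195 of 200 changed genes for untreated HSC in ko against wt (13668 genes). It recovered 190 of 200 for HPC of the second experiment (15610 genes). The changes were set to 1 up or down on the log2 scale, in genes above 10 CPM, with a single spread for all genes. Mitochondrial genes had a median replicate SD of 0.66 and 0.79 on the log2 CPM scale in the first and second experiment. Recovery at their spread was not simulated.

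Replicates of a group differed by far more than sampling noise, with a chi-square per gene of at least 11.3. Replicate numbers were taken to pair libraries where every same-numbered pair's deviations correlated above 0.1, which held for wt HPC against HSC untreated and, in HPC of the second experiment, for IL-1 against PBS in ko and in wt and for ko against wt after IL-1. Named genes were the mitochondrial genes, up to 3 called nuclear genes per complex and direction by smallest p, the paralogs with restricted expression, and up to 3 genes of each other list by smallest p. Ndufs1 and genes named as exceptions were chosen after their values were seen. The members and all lists were chosen with earlier results of these data known.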

Additional observations from a re-analysis of the deposited data

Results flagged for a closer look

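Groups of 4 libraries were checked for a library far from the other 3, on measures such as the nuclear share and Cox6b2 CPM. Of 57 such checks of a group on a measure, 3 were flagged, and chance flags about 1 in 20. The checks use the same libraries repeatedly, so they are not independent. The share of counts on nuclear oxidative phosphorylation genes was 3.88% in GMP ko replicate 2, against 2.86, 2.88 and 2.91% in the other ko GMP libraries. It was 1.87% in HSC wt replicate 4, against 2.02, 2.03 and 2.04% in the others, and this library also held the highest summed neutrophil markers of its group. Cox6b2 had 60.6 CPM of the library total in HPC wt replicate 1, against 44.4, 44.6 and 44.7 CPM in the other wt HPC libraries, so that the ko to wt difference in HPC was smallest against that library. Reads counted for the 7 chromosome 1 copies of mitochondrial genes made up a median of 0.0644% of counts in the second experiment, a signal outside the genes compared.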

How the results depend on the processing

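Of 72 named gene results, 57 kept their call under every alternative run, and 68 of 1068 alternatives ended a call while 0 reversed one. The 40 shares of counts moved by less than the replicate SD in all 270 alternatives. Calls among the oxidative phosphorylation genes changed as follows, and the cause was not tested. In untreated HPC, ko against wt gave 1 call and 0 with the Y-linked covariate, and 0 in 4 of 8 omissions of single libraries (range 0 to 1). In pGM it gave 2 calls, but 1 with all libraries in 1 fit or with the covariate, and 1 in 7 of 8 omissions of single libraries (range 1 to 2). In GMP it gave 0 calls, but 1 (Cox6b2) with DESeq2 or with all libraries in 1 fit. For wt HPC against HSC, 50 calls became 19 to 57 leaving out single libraries, and 58 without GMP het replicate 1 and GMP ko replicate 2. After PBS, wt HPC against HSC gave 2 calls, and 1 in 5 of 7 omissions of single libraries (range 1 to 2). IL-1 in HPC gave 1 call in each genotype, 0 to 1 leaving out single libraries. In HPC after PBS, ko against wt gave 0 calls, but 2 without the filter or with DESeq2.

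Where numbers pair the libraries, the replicate block changed no call count by over 1.5 times. Elsewhere the correlation rule was not met or not applied. A replicate block then gave 12 calls for IL-1 in wt HSC, 13 for ko against wt HSC after IL-1, 6 for the IL-1 change in ko minus wt HSC, 6 for wt HPC against HSC after PBS and 5 for the IL-1 change in wt HPC minus HSC, mostly mitochondrial genes except in the HPC against HSC comparison. In the 3 HSC groups with a replicate 4, its chi-square per gene against the others was 138 to 400, against 34.5 to 107 among replicates 1 to 3. Groups without a replicate 4 had high values as well, at 119 to 211 in wt HSC after IL-1 and up to 175 in ko HPC after IL-1. For the block counts, the share of all genes is not given here, so they have nothing to be read against. Whether libraries of the same number share an effect was not tested further. In the second experiment the median replicate SD on the log2 CPM scale was 0.79 for mitochondrial and 0.34 for nuclear genes.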

Other observations

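Glycolysis genes split within wt GMP against wt HSC: of 23 tested, 13 rose (56.5%, against 27.5% of all genes) and 7 fell (30.4%, against 33.7% of all genes), with a median log2 fold change of 1.08. Gpi1, glucose-6-phosphate isomerase, averaged 1788 ± 160 CPM in GMP and 463 ± 66.8 CPM in HSC (SD, n = 4 each). Slc2a3, a glucose transporter, averaged 14.0 ± 4.1 CPM in GMP and 239 ± 64.6 CPM in HSC, and the aldolase isoform Aldoc 1.76 ± 0.69 CPM in GMP and 87.0 ± 14.7 CPM in HSC. In pGM 8 rose (34.8%) and 5 fell (21.7%), against 20.7% of all genes in each direction, among them Ldhb, a lactate dehydrogenase subunit, at 63.1 ± 10.1 CPM against 236 ± 36.8 CPM in HSC. In HPC 0 rose and 3 fell (where 10.2% of all genes fell), namely Slc2a3, Pdk3 and Aldoc.

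Of 11 regulators of mitochondrial biogenesis, 3 rose and 3 fell in wt GMP against wt HSC (27.3% each, against 27.5% of all genes called higher and 33.7% called lower), so their counts were not above the shares of all genes. Ppargc1a, the coactivator PGC-1α, had 0 counts in the 4 GMP libraries and averaged 3.72 ± 2.13 CPM in HSC. Gabpb1, a partner of the ETS factor GABPA, averaged 45.7 ± 12 CPM in GMP and 85.6 ± 22 CPM in HSC. In pGM Nrf1, the factor whose motif was searched in the promoters, was higher, at 118 ± 16.6 CPM against 67.2 ± 10.5 CPM in HSC.

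Of 10 mitochondrial non-coding RNAs tested in wt GMP against wt HSC, 2 were called lower (20%, against 33.7% of all genes) and 1 higher (10%, against 27.5%). Both shares were below those of all genes. The ribosomal RNAs mt-Rnr1 and mt-Rnr2 were the lower ones, while the transfer RNA gene mt-Tc was called higher, at 6.75 ± 2.9 CPM in GMP and 2.50 ± 1.07 CPM in HSC. The ribosomal RNA mt-Rnr2 averaged 2056 ± 355 CPM in GMP and 6522 ± 1765 CPM in HSC.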
